A study of Mus musculus with 6 samples.

Results

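The platelet-derived growth factor (PDGF) family was followed through its 4 ligand genes *Pdgfa*, *Pdgfb*, *Pdgfc* and *Pdgfd*, the genes of its 2 receptor tyrosine kinases, *Pdgfra* and *Pdgfrb*, and the receptor-like gene *Pdgfrl*. These 7 genes were taken by name from the 43346 genes of the deposited count table, and all 7 were among the 17589 genes with enough counts for a test. RNA-seq of polyadenylated RNA was available for mouse adult fibroblasts (MAFs), primary cells grown from the ears of adult female wild-type C57BL6/J mice, with 3 samples from control and 3 from senescent cultures. Senescence was brought about by 20 Gy of X-rays followed by 21 days of culture, and control cultures were sham irradiated. Both groups were kept at 3% oxygen, were used between passages 3 and 8, and were exposed for 2 hours to 100 nM dexamethasone, a glucocorticoid that sets cultured cells to a common circadian phase. RNA was collected 12 hours later, at 1 time point, and whether the groups were then at the same phase of the clock was not tested. How many mice the cultures came from is not given in the sources used here, and p-values therefore measure the spread between these samples, which may be technical.

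PDGFs are secreted dimers that drive division, migration and matrix production of fibroblasts, pericytes and smooth muscle cells. The A and B chains are cut to their active form inside the cell by furin-like convertases, whereas the C and D chains leave the cell with an inhibitory CUB domain that tissue-type or urokinase-type plasminogen activator and related proteases remove. PDGFRα binds dimers of the A, B and C chains and PDGFRβ those of the B and D chains. Binding pairs receptor molecules, which then phosphorylate each other and recruit SRC kinases, PI3 kinase, phospholipase C gamma and the GRB2 and SOS proteins that activate RAS. PDGFRL resembles the outer part of the receptors and has no kinase domain.

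Total counts lay between 50288454 and 82229553 per library, and a count of 0 allowed at most 0.0613 counts per 1000000 (CPM) in any library, a limit that covers counting error alone. Senescent replicate 3 stood apart from the other senescent libraries: squared differences in counts were 31.7 and 43.9 times the value chance gives against replicates 1 and 2, which differed from each other by 2.42 times chance. Where senescent replicate 3 changes the call of a gene named here, the value without it is given as well. Among the control libraries, replicate 1 differed from replicates 2 and 3 by 6.71 and 5.79 times chance, and these from each other by 1.84 times. *Cdkn1a*, which encodes the cell cycle inhibitor p21, rose in senescent cells and the proliferation gene *Mki67* fell, with log2 fold changes of 2.33 and -5.94. Markers of cell types are counted as risen or fallen at an adjusted p under 0.05 (edgeR), as 36.2% and 34.1% of all tested genes were. Of 9 fibroblast markers, all 9 were tested, 4 rose and 4 fell. Their summed level was 63019 to 65006 CPM in control cells against 47385 to 52841 CPM in senescent ones. All 6 chondrocyte markers fell, from a sum of 4729 to 5257 CPM in control to 336 to 419 CPM in senescent cells. Of 9 markers of pericytes and smooth muscle, 7 rose and 1 fell, with sums of 1498 to 1614 CPM in control cells against 1237 to 1572 CPM in senescent ones, and *Kcnj8* had no count in control cells. Markers of keratinocytes, skeletal muscle and Schwann cells summed to at most 50.1 CPM per list in any library. In bulk samples, fewer cells of a type and less RNA per cell cannot be told apart.

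The regions before the transcription starts of the ligand and receptor genes are shown because the study asked about the clock factor BMAL1, known to bind the E-box CACGTG, and about AP-1, known to bind TGACTCA, and because all 4 ligand genes rose together. RefSeq windows (GRCm38.p6, from 250 bases before to 50 bases after a start) were matched for 4 of the members, with 5 windows in all. No window was available for *Pdgfb*, *Pdgfrb* or *Pdgfrl*, so nothing is said here of the starts of these genes. The 250 bases before the start follow for the members in which this stretch held no annotated exon, in lower case because none of the searched motifs occurred.
*Pdgfc*, chr3:81036166-81036415, plus strand: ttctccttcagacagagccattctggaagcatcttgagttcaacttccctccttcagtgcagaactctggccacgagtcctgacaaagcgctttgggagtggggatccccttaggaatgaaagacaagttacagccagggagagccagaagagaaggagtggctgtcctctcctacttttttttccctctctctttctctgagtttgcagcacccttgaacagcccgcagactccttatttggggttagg
*Pdgfd*, chr9:6168236-6168485, plus strand: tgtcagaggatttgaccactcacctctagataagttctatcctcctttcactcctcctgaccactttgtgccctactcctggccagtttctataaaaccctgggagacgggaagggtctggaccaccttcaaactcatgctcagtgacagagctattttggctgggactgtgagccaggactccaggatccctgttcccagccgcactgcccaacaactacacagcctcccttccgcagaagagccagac
*Pdgfra*, chr5:75152001-75152250, plus strand: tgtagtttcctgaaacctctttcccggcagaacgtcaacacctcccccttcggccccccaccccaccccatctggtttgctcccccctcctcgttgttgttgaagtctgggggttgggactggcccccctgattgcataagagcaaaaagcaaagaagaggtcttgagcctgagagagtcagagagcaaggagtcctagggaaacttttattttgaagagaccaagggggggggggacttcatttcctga

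*Pdgfa* had a window at each of 2 annotated starts, and both held the GC box GGGCGG, the letters bound by SP1. The stretches around these matches are given with the GC boxes in capitals, read from the strand of the gene. Both windows lay within the annotated span of *Pdgfa*, and the 250 bases before each start overlapped annotated exons.
*Pdgfa*, upstream start, chr5:138995015-138995044, minus strand: ccagcccCCGCCCtCCGCCCcttccgtccc
*Pdgfa*, downstream start, chr5:138994319-138994348, minus strand: gggactaGGGCGGgcagtaagcaggtagag

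The first stretch spans positions -100 to -71 from its start and holds 2 GC boxes on the opposite strand, and the other spans -67 to -38 and holds 1. The base composition of the 250 bases before the start differed between members, with 72.4% and 66.4% G or C at the starts of *Pdgfa* against 50.8% in *Pdgfc*, 53.6% in *Pdgfd* and 54.4% in *Pdgfra*. Searched on both strands of all 32851 windows, the AP-1 site was found in 5.20%, the E-box in 7.15%, the GC box in 35.7%, the EGR1 site GCGTGGGCG in 0.612% and the glucocorticoid element (AGAACA and TGTTCT with 3 bases between them) in 0.00913%. None of the 5 windows held the AP-1 site, the E-box, the EGR1 site or the glucocorticoid element, which says only that these letters are not in these windows. The letters of the EGR1 site can overlap those of a GC box.

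To ask how the family differed between control and senescent cells, counts were scaled by TMM to CPM and tested with edgeR (quasi-likelihood), and p-values were adjusted after Benjamini and Hochberg over all 17589 genes. All 4 ligand genes were higher in senescent cells, with folds from 1.79 to 16.0. *Pdgfra* and *Pdgfrl* were lower, and *Pdgfrb* did not pass the test. At an adjusted p under 0.05, 4 members were called higher, where 36.2% of all tested genes were, and 2 were called lower, where 34.1% of all tested genes were. In either direction, 6 of 7 members and 70.3% of all tested genes were called. Under the rule in the study's methods, which takes a log2 fold change beyond 1 in size with an unadjusted p below 0.05, 3 members were higher (17.8% of all tested genes) and 1 was lower (12.3% of all tested genes). In either direction this rule took 4 members and 30.1% of all tested genes. The control and senescent values of 6 members did not overlap, in 4 with higher senescent values (38.4% of all tested genes) and in 2 with lower ones (37.0%), where 75.3% of all tested genes were without overlap. The median log2 fold change was 0.84 over the members and 0.01 over all tested genes.

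**Figure D1:**
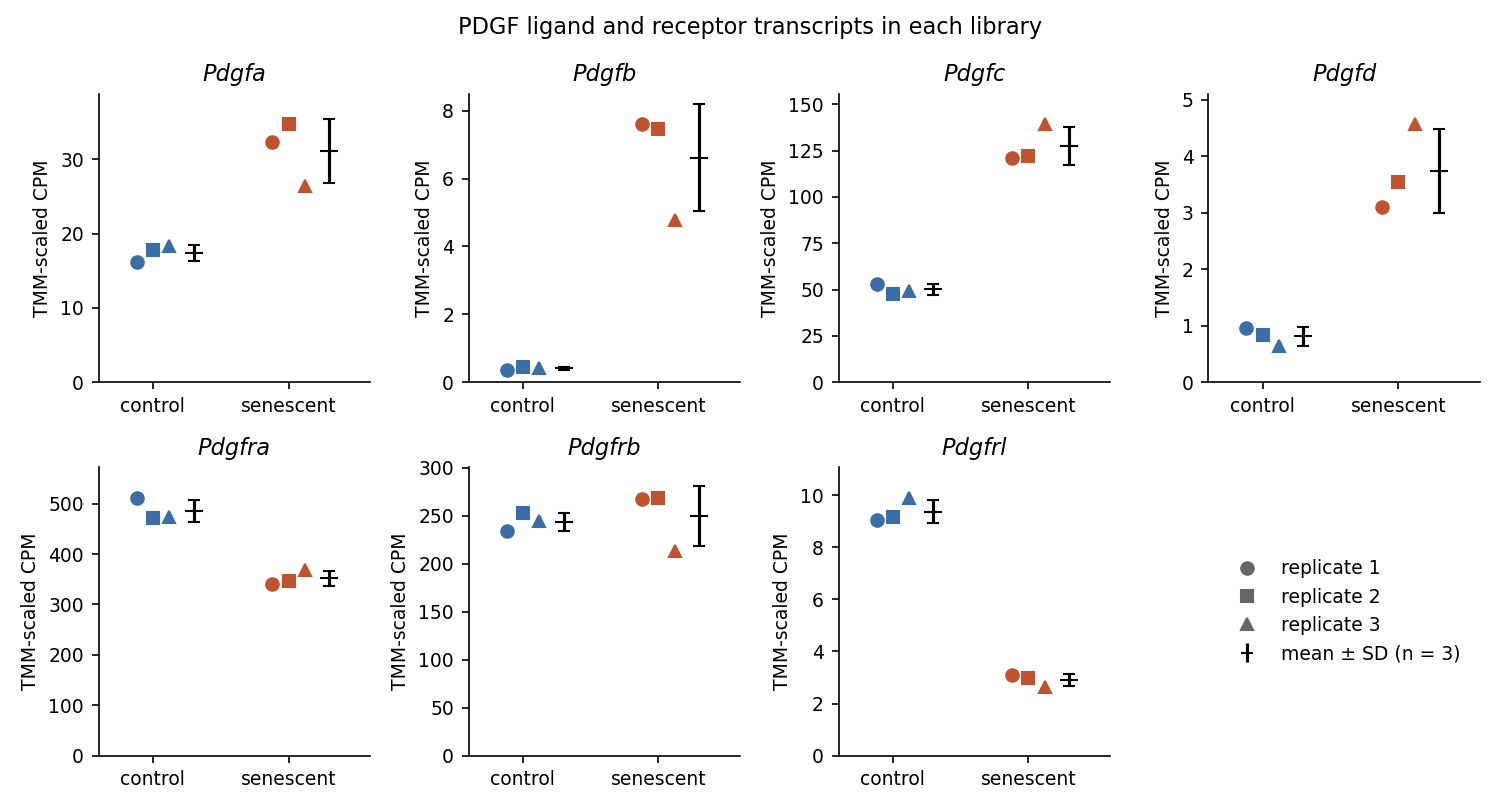
TMM-scaled CPM of the 7 genes in each library, on axes that start at 0, with control libraries in blue, senescent libraries in orange, a marker shape for each replicate number, and the mean ± SD of 3 libraries in black. The senescent values lie above the control values for the 4 ligand genes and below them for *Pdgfra* and *Pdgfrl*, and for *Pdgfrb* they overlap, with senescent replicate 3 at 213 CPM.

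*Pdgfb* (ENSMUSG00000000489), on chromosome 15 of mm10 from 79995900 to 80014808, encodes the B chain, which can bind both receptors and is known as the signal by which endothelium recruits pericytes. Control replicates 1, 2 and 3 held 18, 27 and 20 of its counts, and the senescent replicates 421, 592 and 404. Scaled, these were 0.361, 0.452 and 0.409 CPM in control cells against 7.60, 7.47 and 4.79 CPM in senescent ones. Every senescent library was above every control library, and senescent replicate 3 was the lowest of its group. On the log2 scale it rose by 4.0 (SE 0.25), a 16.0-fold increase with a 95% confidence interval of 10.8 to 23.8 (adjusted p = 3.55e-06, edgeR). A larger increase was seen in 3.72% of all tested genes. Without senescent replicate 3, the log2 fold change was 4.20.

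Because endothelium and platelets are known sources of PDGF-B, their markers were examined beside it. Of 8 endothelial markers, 5 were tested and all 5 rose, where 36.2% of all tested genes did. The sum over the list was 2.55 to 2.96 CPM in control cells against 8.30 to 8.85 CPM in senescent ones. The defining genes *Pecam1* and *Cdh5* rose from 0.471 and 0.104 CPM in control cells to 1.29 and 0.494 CPM in senescent cells. Of the other tested markers, *Kdr* rose from 0.206 to 2.92 CPM, *Tek* from 1.78 to 2.92 CPM and *Vwf* from 0.108 to 0.559 CPM. *Cldn5* had no count in control cells and 6, 10 and 12 counts in senescent replicates 1, 2 and 3. Of 5 markers of megakaryocytes and platelets, 2 were tested, none rose and 1 fell, with sums of 10.2 to 11.03 CPM in control cells against 6.60 to 7.67 CPM in senescent ones. *Gp9* and *Gp1ba*, subunits of the platelet glycoprotein complex, had no count in control cells. In senescent replicates 1, 2 and 3, *Gp9* had 3, 2 and 7 counts and *Gp1ba* 0, 2 and 1, too few to be tested. Macrophages are a further known source, and of their 6 markers 5 were tested and all 5 rose, with sums of 8.30 to 9.01 CPM in control cells against 18.3 to 21.1 CPM in senescent ones. The part of such cells in the *Pdgfb* result was not tested.

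*Pdgfa* (ENSMUSG00000025856), on chromosome 5 from 138976014 to 138997370, encodes the A chain, a ligand of PDGFRα. It was at 16.2, 17.7 and 18.3 CPM in control replicates 1, 2 and 3 and at 32.3, 34.7 and 26.4 CPM in senescent replicates 1, 2 and 3. The groups did not overlap, and senescent replicate 3 was again the lowest of its group. Its log2 fold change was 0.84 (SE 0.11), a 1.79-fold increase with a 95% confidence interval of 1.49 to 2.14 (adjusted p = 0.000272, edgeR). The antisense gene *6330403L08Rik* lies over *Pdgfa* and shares 813 exonic bases with it in the GENCODE annotation. It rose from 7.98 ± 0.273 to 18.1 ± 1.78 CPM (mean ± SD, n = 3 in each group), and since the strand setting of the counting is not given, reads of both genes cannot be told apart over these bases.

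*Pdgfc* (ENSMUSG00000028019), on chromosome 3 from 81036416 to 81214040, encodes a CUB-domain ligand of PDGFRα. It was the ligand gene with the highest level per length in both groups. Its values were 53.3, 47.6 and 49.3 CPM in control replicates 1, 2 and 3 and 121, 122 and 139 CPM in senescent replicates 1, 2 and 3. Here senescent replicate 3 was the highest of its group. Its log2 fold change was 1.35 (SE 0.08), a 2.55-fold increase with a 95% confidence interval of 2.25 to 2.88 (adjusted p = 2.48e-06, edgeR).

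*Pdgfd* (ENSMUSG00000032006), on chromosome 9 from 6168612 to 6378843, encodes the CUB-domain ligand of PDGFRβ. It had 48, 50 and 31 counts in control and 172, 281 and 385 counts in senescent replicates 1, 2 and 3. These correspond to 0.962, 0.837 and 0.634 CPM in control cells against 3.103, 3.55 and 4.56 CPM in senescent ones. The groups did not overlap, and, as for *Pdgfc*, senescent replicate 3 was the highest. This was a log2 fold change of 2.21 (SE 0.21), a 4.61-fold increase with a 95% confidence interval of 3.31 to 6.43 (adjusted p = 3.77e-05, edgeR). The coefficients of variation in senescent cells were 20.0% for *Pdgfd* and 23.98% for *Pdgfb*, against 7.97% for *Pdgfc*.

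*Pdgfra* (ENSMUSG00000029231), on chromosome 5 from 75152291 to 75198204, encodes PDGFRα and is widely used to mark fibroblasts. It was at 511, 471 and 473 CPM in control replicates 1, 2 and 3 and at 341, 346 and 368 CPM in senescent replicates 1, 2 and 3. Every senescent library was below every control library. Its log2 fold change was -0.46 (SE 0.06), which is 0.725 times the control level with a 95% confidence interval of 0.658 to 0.799 (adjusted p = 0.000241, edgeR). Per length, *Pdgfra* was above 96.0% of all tested genes in control and above 94.5% in senescent cells. In the same libraries the chondrocyte markers above fell, while the fibroblast markers moved both ways: *Col1a1*, *Col1a2*, *Col3a1* and *Vim* fell, with log2 fold changes from -2.54 to -0.74, and *Dcn*, *Fap*, *Thy1* and *Lum* rose, with log2 fold changes from 0.85 to 3.94. The remaining marker, *Fn1*, had a log2 fold change of -0.06 (adjusted p = 0.36, edgeR), and the part of the mix of cells in the *Pdgfra* result was not tested.

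*Pdgfrb* (ENSMUSG00000024620), on chromosome 18 from 61045150 to 61085061, encodes PDGFRβ, the receptor typical of pericytes and smooth muscle that cultured fibroblasts also carry. It was at 234, 253 and 244 CPM in control replicates 1, 2 and 3 and at 267, 269 and 213 CPM in senescent replicates 1, 2 and 3. Senescent replicates 1 and 2 were above all control libraries and senescent replicate 3 was below them. Between the groups it differed by 0.04 on the log2 scale (SE 0.09, adjusted p = 0.755, edgeR), and the 95% confidence interval of -0.18 to 0.25 leaves room for a small change in either direction. Without senescent replicate 3, *Pdgfrb* was called higher, by 0.14 on the log2 scale (adjusted p = 0.00274, edgeR), so that this library decides the call. Of the 9 markers of pericytes and smooth muscle, 7 rose and 1 fell (36.2% and 34.1% of all tested genes), with a median log2 fold change of 2.33. Those that rose averaged at most 23.1 CPM in senescent cells (*Mcam*), and among them *Rgs5* rose from 0.708 to 11.4 CPM. *Cspg4*, the 1 that fell, went from 386 to 221 CPM, and *Acta2* was at 1171 and 1172 CPM (adjusted p = 0.996, edgeR). The part of such cells in the *Pdgfrb* values was not tested.

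*Pdgfrl* (ENSMUSG00000031595), on chromosome 8 from 40926212 to 40990785, encodes the receptor-like protein without a kinase. It had 452, 547 and 484 counts in control and 171, 237 and 222 counts in senescent replicates 1, 2 and 3, or 9.06, 9.15 and 9.89 CPM in control cells against 3.09, 2.99 and 2.63 CPM in senescent ones. The groups did not overlap, and the spread within each was small, with coefficients of variation of 4.85% and 8.27%. This gave a log2 fold change of -1.69 (SE 0.10), which is 0.309 times the control level with a 95% confidence interval of 0.264 to 0.363 (adjusted p = 2.6e-06, edgeR). It was the only member with a decrease beyond 1 on the log2 scale.

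**Figure D2:**
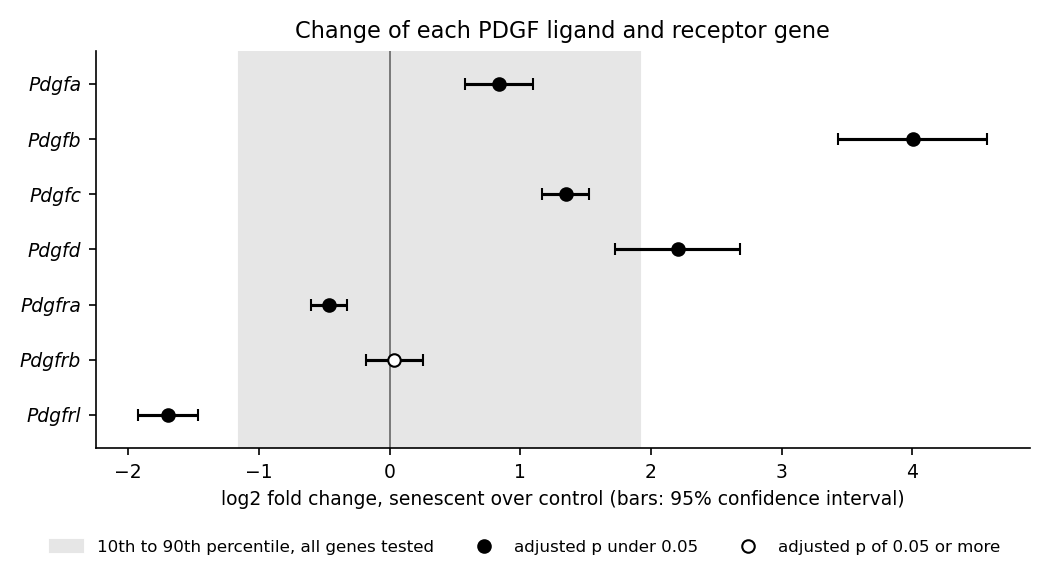
Log2 fold change of the 7 genes in senescent over control cells, with 95% confidence intervals from edgeR as bars, filled points for an adjusted p under 0.05, and the range from the 10th to the 90th percentile of all tested genes (-1.15 to 1.92) in grey. *Pdgfb* at 4.0 and *Pdgfd* at 2.21 lie above the grey range, *Pdgfrl* at -1.69 lies below it, and the interval of *Pdgfrb* includes 0.

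To compare levels between genes, CPM were divided by the exonic length in the deposited table. In control cells the order was *Pdgfra* (72.0 CPM per kb), *Pdgfrb* (44.5), *Pdgfc* (9.84), *Pdgfa* (5.58), *Pdgfrl* (3.00), *Pdgfd* (0.260) and *Pdgfb* (0.140 CPM per kb). In senescent cells it was *Pdgfra* (52.2 CPM per kb), *Pdgfrb* (45.6), *Pdgfc* (25.0), *Pdgfa* (9.98), *Pdgfb* (2.27), *Pdgfd* (1.20) and *Pdgfrl* (0.928 CPM per kb). In both groups, each gene was above the next in the order in all 3 libraries. The order of the first 4 genes was shared by both groups, *Pdgfb* moved from the last place to the fifth, and *Pdgfrl* moved from the fifth place to the last.

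The summed ligand level was 16.1, 15.5 and 15.9 CPM per kb in control replicates 1, 2 and 3 and 37.8, 38.8 and 38.9 CPM per kb in senescent replicates 1, 2 and 3. The summed level of *Pdgfra* and *Pdgfrb* was 119, 116 and 115 CPM per kb in control and 99.4, 100.5 and 93.6 CPM per kb in senescent cells. The ratio of ligand to receptor transcripts was thus 0.136, 0.133 and 0.138 in control and 0.380, 0.386 and 0.416 in senescent cells, a 2.90-fold difference with no overlap (exact two-sided permutation test, p = 0.1, the smallest that 3 samples against 3 can give). Adjusted over the 3 ratios tested, this p was 0.15.

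*Pdgfc* made up 62.2 ± 2.48% of the summed ligand level in control and 65.0 ± 4.58% in senescent cells, and *Pdgfa* 35.3 ± 2.60% and 26.0 ± 3.69% (mean ± SD, n = 3 in each group). *Pdgfb* rose from 0.883 ± 0.116% to 5.90 ± 1.47% of the ligand level and *Pdgfd* from 1.64 ± 0.329% to 3.11 ± 0.583%. The share of *Pdgfb* was therefore small in both groups, although its fold change was the largest of the family. The ratio of *Pdgfa* and *Pdgfb* to *Pdgfc* and *Pdgfd* was 0.494, 0.607 and 0.606 in control and 0.522, 0.546 and 0.351 in senescent cells. These values overlapped, with a difference of -0.29 on the log2 scale (exact two-sided permutation test, p = 0.3, adjusted p = 0.3), and without senescent replicate 3 the difference was -0.09.

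The ratio of *Pdgfra* to *Pdgfrb* was 1.78, 1.52 and 1.58 in control replicates 1, 2 and 3 and 1.04, 1.05 and 1.40 in senescent replicates 1, 2 and 3. The groups did not overlap, and the receptors were closer to equal levels in senescent replicates 1 and 2 than in senescent replicate 3. The difference was -0.49 on the log2 scale (exact two-sided permutation test, p = 0.1, adjusted p = 0.15) and -0.63 without senescent replicate 3.

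**Figure D3:**
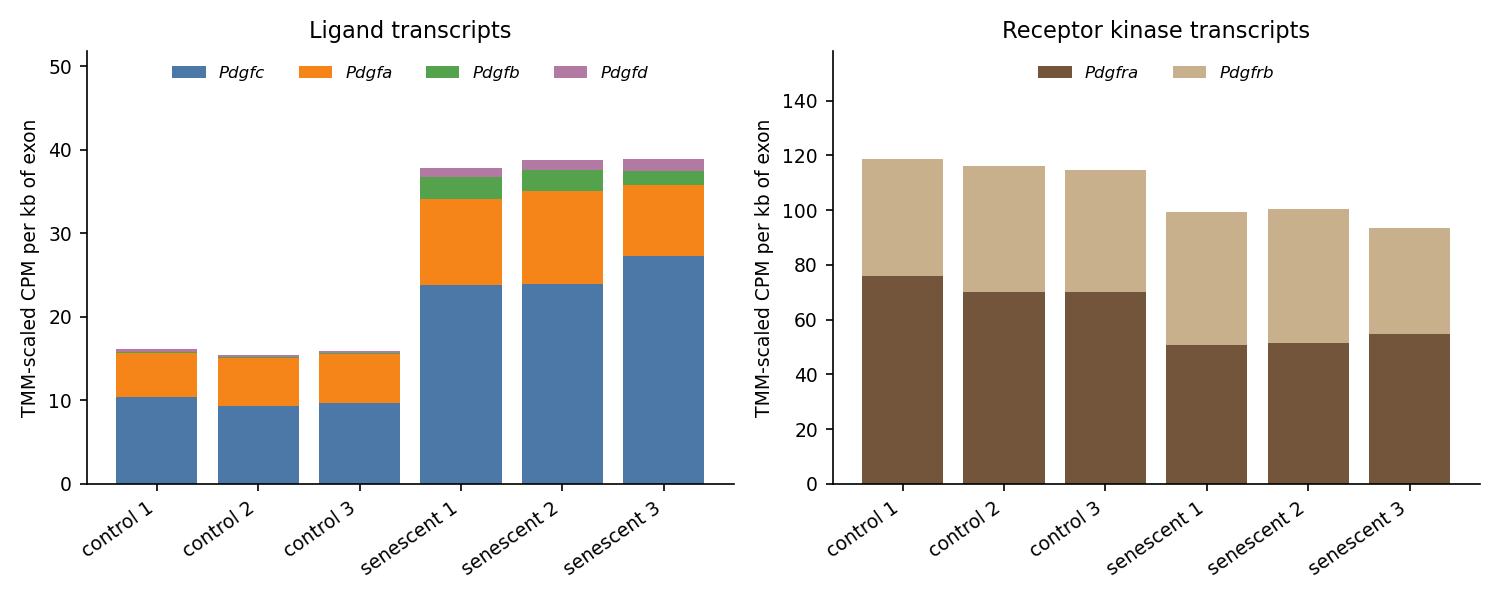
Stacked levels of the 4 ligand genes (left) and the 2 receptor kinase genes (right) in each library, in TMM-scaled CPM per kb of exon, on axes that start at 0. The ligand sum lies between 15.5 and 16.1 in control and between 37.8 and 38.9 in senescent libraries, mostly *Pdgfc* and *Pdgfa*, and the receptor sum is lower in each senescent library than in each control library.

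Genes around the receptors were examined with 5 lists written from general knowledge, of 76 genes, of which 73 were tested, 34 rose and 23 fell. In either direction this is 57 of 73 genes, against 70.3% of all tested genes. Higher alone were 36.2% of all tested genes and lower alone 34.1%, the shares beside which the counts of each list below stand. The median log2 fold change was 0.18 over the 73 genes and 0.01 over all tested genes.

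Of the 9 genes for proteins that process the ligands or assist the receptors, 4 rose and 3 fell, with a median log2 fold change of 0.04. Among the convertases of the A and B chains, *Pcsk5* rose from 19.02 ± 2.15 to 91.3 ± 4.52 CPM (mean ± SD, n = 3 in each group), a log2 fold change of 2.26. *Pcsk7* and *Furin* fell, by 0.57 and 0.55 on the log2 scale, and *Pcsk6* was at 106 ± 1.75 CPM in control cells against 96.2 ± 13.4 CPM in senescent ones (adjusted p = 0.228, edgeR). The call for *Furin* was lost without control replicate 2 or 3 (adjusted p = 0.0702 and 0.0695, edgeR). It was also lost with no filter beyond 1 count (adjusted p = 0.0982, edgeR). Without senescent replicate 3 the call was kept (adjusted p = 0.00506, edgeR), with a log2 fold change of -0.35. The 3 activators of the CUB-domain ligands on this list all rose. *Plat*, which encodes tissue-type plasminogen activator and acts on PDGF-C, rose from 49.0 ± 0.468 to 87.1 ± 3.03 CPM, and *Plau*, which encodes the urokinase type and acts on PDGF-D, from 50.2 ± 0.729 to 85.6 ± 1.23 CPM. *St14*, which encodes matriptase, had 12, 14 and 13 counts in control and 150, 202 and 146 counts in senescent libraries, a log2 fold change of 3.22. Of the co-receptors, *Nrp1* fell from 313 ± 12.1 to 164 ± 12.6 CPM, a log2 fold change of -0.93. *Lrp1* was at 1191 ± 85.9 CPM in control cells against 1227 ± 316 CPM in senescent ones (adjusted p = 0.843, edgeR), and without senescent replicate 3 it was called higher, with a log2 fold change of 0.25 (adjusted p = 0.00485, edgeR).

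Of 35 genes for proteins that carry the receptor signal, 12 rose, 13 fell and 10 did not pass the test, with a median log2 fold change of 0.13. *Gab2*, which encodes a docking protein for PI3 kinase and SHP2, rose from 6.96 ± 0.832 to 34.4 ± 1.24 CPM (mean ± SD, n = 3 in each group), and *Plcg2*, a phospholipase C gamma gene, from 2.18 ± 0.0107 to 8.29 ± 0.893 CPM. The log2 fold changes were 2.30 and 1.93. *Sos2*, which encodes an exchange factor for RAS, rose by 0.99 and *Pik3r3*, which encodes a regulatory subunit of PI3 kinase, fell by 0.99 on the log2 scale. Genes closely related to *Plcg2* and *Gab2* differed from them in sign: *Plcg1* had a log2 fold change of -0.49 against 1.93 for *Plcg2*, and *Gab1* of -0.82 against 2.30 for *Gab2*. *Sos1* and *Pik3r2* shared the sign of *Sos2* and *Pik3r3*, with log2 fold changes of 0.49 and -0.55. The call of *Pik3r2* was lost under 3 of the 13 other settings tried. *Pik3r1*, at 0.13 on the log2 scale, was not called (adjusted p = 0.174, edgeR). All of these related genes were picked with their values in view.

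The list for dampening of the receptors held 12 genes, of which 11 were tested, 5 rose and 4 fell, with a median log2 fold change of 0.15. Whether each of these genes dampens the receptors in these cells was not tested. *Ptprj*, which encodes a phosphatase that acts on PDGFRβ, rose from 7.74 ± 0.546 to 25.3 ± 2.06 CPM (mean ± SD, n = 3 in each group), and *Rasa1*, which encodes a GTPase activator for RAS that binds PDGFRβ, from 78.1 ± 3.26 to 241 ± 38.6 CPM. *Grb10*, which encodes an adaptor, fell from 926 ± 10.9 to 420.1 ± 18.9 CPM, and *Slc9a3r1*, which encodes the scaffold NHERF1, from 14.5 ± 1.01 to 7.96 ± 1.64 CPM. The untested gene was *Sla*, with at most 3 counts in a control library and 7, 15 and 12 counts in senescent libraries.

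The list of genes known to be induced by PDGF or serum in fibroblasts held 13 genes, with a median log2 fold change of 0.76. Of these, 9 rose and 2 fell, where 36.2% of all tested genes rose and 34.1% fell. *Ccl2*, a chemokine gene, *Fosl1*, an AP-1 subunit gene, *Ccnd1*, the gene of cyclin D1, and *Plaur*, the gene of the urokinase receptor, had log2 fold changes of 2.73, 1.93, 1.87 and 1.73. The genes that fell were *Fos*, from 9.70 ± 0.322 to 5.56 ± 0.609 CPM, and *Has2*, which makes hyaluronan, from 118 ± 4.89 to 100.5 ± 10.4 CPM (mean ± SD, n = 3 in each group). The call for *Has2* was lost under 10 of the 13 other settings tried, among them leaving out any 1 library other than senescent replicate 3. These genes also respond to many other stimuli, and RNA was taken hours after a change of treatment, so the list is no measure of PDGF signalling.

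PDGFRα and PDGFRβ belong to the class III receptor tyrosine kinases, with KIT, CSF1R and FLT3. Of 7 genes for these receptors and their ligands, 5 were tested, 4 rose and 1 fell, with a median log2 fold change of 1.11. *Csf1*, which encodes the ligand M-CSF, rose from 238 ± 5.02 to 1229.6 ± 80.5 CPM and *Il34*, the other ligand gene of CSF1R, from 5.65 ± 0.0983 to 12.2 ± 1.65 CPM (mean ± SD, n = 3 in each group). *Kitl*, which encodes stem cell factor, rose from 34.7 ± 2.09 to 113 ± 21.1 CPM, and *Flt3l* fell from 6.59 ± 0.889 to 4.08 ± 0.629 CPM. Of the receptor genes outside the PDGF family, *Csf1r* rose from 1.99 ± 0.131 to 3.91 ± 0.480 CPM, *Kit* had 1, 0 and 0 counts in control and 8, 21 and 19 counts in senescent libraries, and *Flt3* had no count in control and 6, 5 and 6 counts in senescent libraries. *Kit* and *Flt3* had too few counts to pass the filter. *Csf1r* is also on the list of macrophage markers given above, so its rise is counted in both lists. The part of such cells in the *Csf1r* result was not tested.

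**Figure D4:**
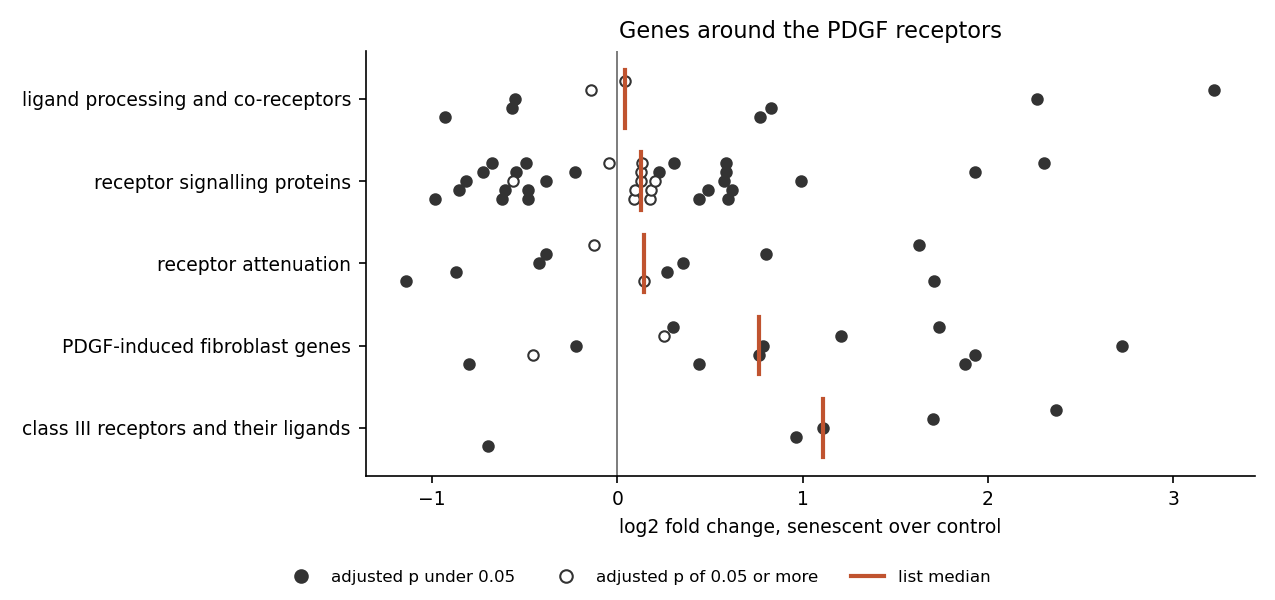
Log2 fold change in senescent over control cells of the 73 tested genes of the 5 lists, with filled points for an adjusted p under 0.05 (edgeR), open points for the others and the median of each list as an orange line (points are spread vertically for visibility only). The medians lie at 0.04, 0.13, 0.15, 0.76 and 1.11 from the top list to the bottom, and each list has genes on both sides of 0.

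The genes whose pattern over the 6 libraries was most like that of each member were sought among the 11838 named genes that averaged 100 counts or more, as the smallest root mean square difference of log2 CPM after centring each gene on its mean. The nearest gene to *Pdgfb* was *Mylk2* (0.140), to *Pdgfa* *Zfand3* (0.0303), to *Pdgfc* *Rasal2* (0.0175) and to *Pdgfd* *Fam49a* (0.115). The second nearest were *Uchl1* (0.162), *Cx3cl1* (0.0329), *Mapk6* (0.0237) and *Tiparp* (0.143) in the same order. For the receptors, the nearest genes were *Helz* (0.0159) and *Aaed1* (0.0172) to *Pdgfra*, *Psmd4* (0.0112) and *Ubxn1* (0.0167) to *Pdgfrb*, and *Rdm1* (0.0393) and *Fam160a1* (0.0460) to *Pdgfrl*. With 6 libraries in 2 groups, this measure describes mainly the size of the difference between the groups.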

How the data were processed

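Mouse adult fibroblasts were profiled by stranded mRNA-seq (200 ng of RNA, paired reads of 100 bases) in 3 control and 3 senescent samples, grouped and numbered by their labels. The authors mapped reads to mm10 with STAR, assigned them to genes with Subread within the MAPRSeq pipeline, and deposited raw counts for each gene. Their strand setting and treatment of reads with several positions are not given in the sources used here. Genes were kept by filterByExpr, scaled by TMM and compared with edgeR's robust quasi-likelihood test (edgeR 4.0.16, R 4.3.3), group as the only term, two-sided, with Benjamini-Hochberg adjustment. Standard errors are the log2 fold change divided by the square root of F. Alternatives were RLE scaling, library size alone, no filter beyond 1 count, DESeq2 1.42.0, edgeR's exact test, a filter of 10 counts or more per library, the replicate number as a block, and leaving out each library. Within-library ratios were compared by exact permutation tests (scipy 1.17.1).

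Levels are CPM computed here, also per kb of the exonic length in the deposited table. Total counts per library ranged from 50288454 to 82229553, and reads carried no molecular identifiers, so limits from counts cover counting error alone. The members and lists were chosen with earlier results of these data known. The genes named are all members, the 4 called genes with the largest change in each list, all genes of the lists of ligand processing and of class III receptors, and the 2 genes most like each member, unless said otherwise. Some listed genes enter the counts and medians of their list, and their own values are not reported here. Overlapping genes came from GENCODE M21 (GRCm38, the assembly of mm10).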

Additional observations from a re-analysis of the deposited data

How the results depend on the processing

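The calls of *Pdgfa*, *Pdgfb*, *Pdgfc*, *Pdgfd*, *Pdgfra* and *Pdgfrl* kept their direction and their side of the threshold under all 7 other fits and with each library left out. Log2 fold changes without 1 library ranged from 0.76 to 0.95 for *Pdgfa*, 3.90 to 4.20 for *Pdgfb*, 1.29 to 1.39 for *Pdgfc*, 2.04 to 2.33 for *Pdgfd*, -0.49 to -0.43 for *Pdgfra* and -1.73 to -1.62 for *Pdgfrl*. *Pdgfrb* ranged from -0.012 to 0.14. With library size alone, the median of all tested genes moved to 0.09 and *Pdgfra* was at -0.39. Members called were 6 or 7 without 1 library and 4 with the fold limit. Without 1 library, the difference in log2 ratio ranged from -0.63 to -0.42 for *Pdgfra* to *Pdgfrb*, -0.40 to -0.09 for the classical to the CUB-domain ligands and 1.496 to 1.56 for ligands to receptors.

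Among the 73 listed genes, 24 of 511 values from the other fits and 38 of 438 values without 1 library changed their call or direction, 2 and 6 of them in direction. *Yes1* turned from -0.05 to 0.031 with library size alone and to 0.0011 with a filter of 10 counts or more per library. Without 1 library, *Yes1* ranged from -0.23 to 0.050 and *Lrp1* from -0.10 to 0.25. *Yes1* was called lower without senescent replicate 3, at -0.23 (adjusted p = 0.0014, edgeR), and was not called with all libraries (adjusted p = 0.779, edgeR). The causes were not tested. Whether same-numbered samples of the groups share an origin is not given. Their deviations from the mean of their group correlated at -0.56, 0.44 and -0.40. The highest correlation, 0.67, was between control replicate 1 and senescent replicate 3. With 3 libraries per group, each centred on its group, such values cannot settle whether the samples are paired. With the replicate block, 6 members were called, 57 listed genes became 56, and 11624 genes in place of 12365 were called over the whole table, while the differences in log2 ratio were -0.49, -0.29 and 1.54. With no filter beyond 1 count, genes called higher went from 4 to 6 among the class III receptors and their ligands. In the list for dampening of the receptors they went from 5 to 6.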
